A study of Mus musculus with 6 samples.

Results

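The contractile apparatus of smooth muscle was followed through 32 genes, chosen by symbol for their known roles, with earlier results of these data known: the actins, myosins and tropomyosins of the filaments, their regulators, the proteins that anchor the filaments, and 4 transcription factors. The array's probe table listed 31 of them, with 1 row each, among the 22206 transcript clusters tested. Pdlim7 was not listed and was not analysed here. RNA came from Müllerian ducts of E17.5 mouse embryos (embryonic day), with 1 array per embryo, and the duct is the tube from which oviduct, uterus and upper vagina form. All 6 embryos carried floxed Lats1 and floxed Lats2 alleles (Lats1f/f,Lats2f/f), and the 3 mutant embryos also carried Amhr2cre/+, a Cre recombinase in 1 copy of the Amhr2 locus, which the 3 control embryos lacked. Amhr2 is active in the duct's mesenchyme, so the comparison of mutant with control concerns Cre at that locus together with what Cre deletes in those cells. The labels give no sex, strain or litter for the embryos.

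Smooth muscle shortens when calcium and calmodulin switch on myosin light chain kinase and myosin pulls on actin filaments tied to dense bodies. The genes of this apparatus are switched on by serum response factor (SRF) with its partners myocardin and the myocardin-related factors, which respond to actin assembly. In the female tract the mesenchyme around the duct gives rise to the muscle of the uterine wall, a layer that matures late. LATS1 and LATS2 are the Hippo kinases that hold back YAP and TAZ, coactivators that act through TEAD factors and that also respond to tension.

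Values are log2 signals, on which a difference of 1 is 2-fold, and signals of different genes are not set against each other. A difference was called where the adjusted p of limma, a linear model with shared variance estimates fitted to all rows, was under 0.05. A signal under the median of the array's background probes, between 5.35 and 5.88 on the 6 arrays, is described as below background. Array medians lay between 6.87 and 6.95. Of 16 Müllerian mesenchyme and epithelium genes, 15 were above background on some array. Lhx1 was below it on every array, as were 7224 of all 22206 rows, so this count alone does not identify the tissue. Amhr2 was between 10.51 and 10.88 in controls and between 6.54 and 7.52 in mutants, and the arrays did not overlap. Lats1 had a log2 difference of -0.78 ± 0.21 (limma adjusted p = 0.0958) and Lats2 one of 0.22 ± 0.21 (limma adjusted p = 0.684), and since no probe positions were used here, neither value checks the deletion. Of the contractile genes, Pln and Synm were below background on every array, while Acta2, Tagln, Tpm1, Csrp1 and Mylk gave strong signals throughout.

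Control 3 stood apart from control 1 and control 2, so each comparison was made with it and without it. Of the 31 contractile genes, 10 were higher in control 3 than in both other controls by 1 or more, beside 1.26% of all tested rows, and this 1 array allows no test. All 12 urothelial markers, genes of the lining of bladder and urethra, were likewise at least 1 higher there. Their mean log2 signal was 9.39 in control 3, against 5.34 and 5.64 in control 1 and control 2 and between 5.59 and 5.72 in mutants. On a linear scale the log2 of their summed signal ran from 12.23 to 15.10 in controls and from 13.02 to 13.09 in mutants, and Krt5 and Krt20 were below background on every array. Among rows with a symbol, the 10 with the largest excess in control 3 were Upk2 (8.05), Psca (7.94), Car3 (6.09), Sprr1a (5.50), Ly6d (5.46), Sst (5.44), Upk1a (5.20), Ipw (5.05), Myh11 (4.97) and Ctse (4.89). Of 18 skeletal and cardiac muscle markers, 5 were at least 1 higher in control 3 than in both other controls, and their mean log2 signal was 5.51 there against 4.92 to 4.93 in the other controls. Of these, 11 were below background on every array, among them Myod1, Pax7, Ttn and Neb. Of 7 markers of interstitial cells and nerve 3 had such an excess, the nerve genes Elavl4, Ret and Tubb3. The mean of the 7 was 9.50 against 8.51 and 8.13. The excess was 0.95 for Sox10 and 0.11 for Etv1, while Kit and Ano1 in control 3 were under the higher of the other controls. The log2 of the summed signal of the muscle markers ran from 10.14 to 10.97 in controls and from 10.06 to 10.41 in mutants. That of the interstitial and nerve markers ran from 14.76 to 14.91 and from 13.87 to 14.08. Most of it was Ano1, which ran from 14.57 to 14.77 in controls and from 13.58 to 13.82 in mutants. The part of urothelium, bladder muscle or nerve in the values of control 3 was not tested. In bulk tissue, fewer cells of a type and less RNA per cell cannot be told apart.

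**Figure D1:**
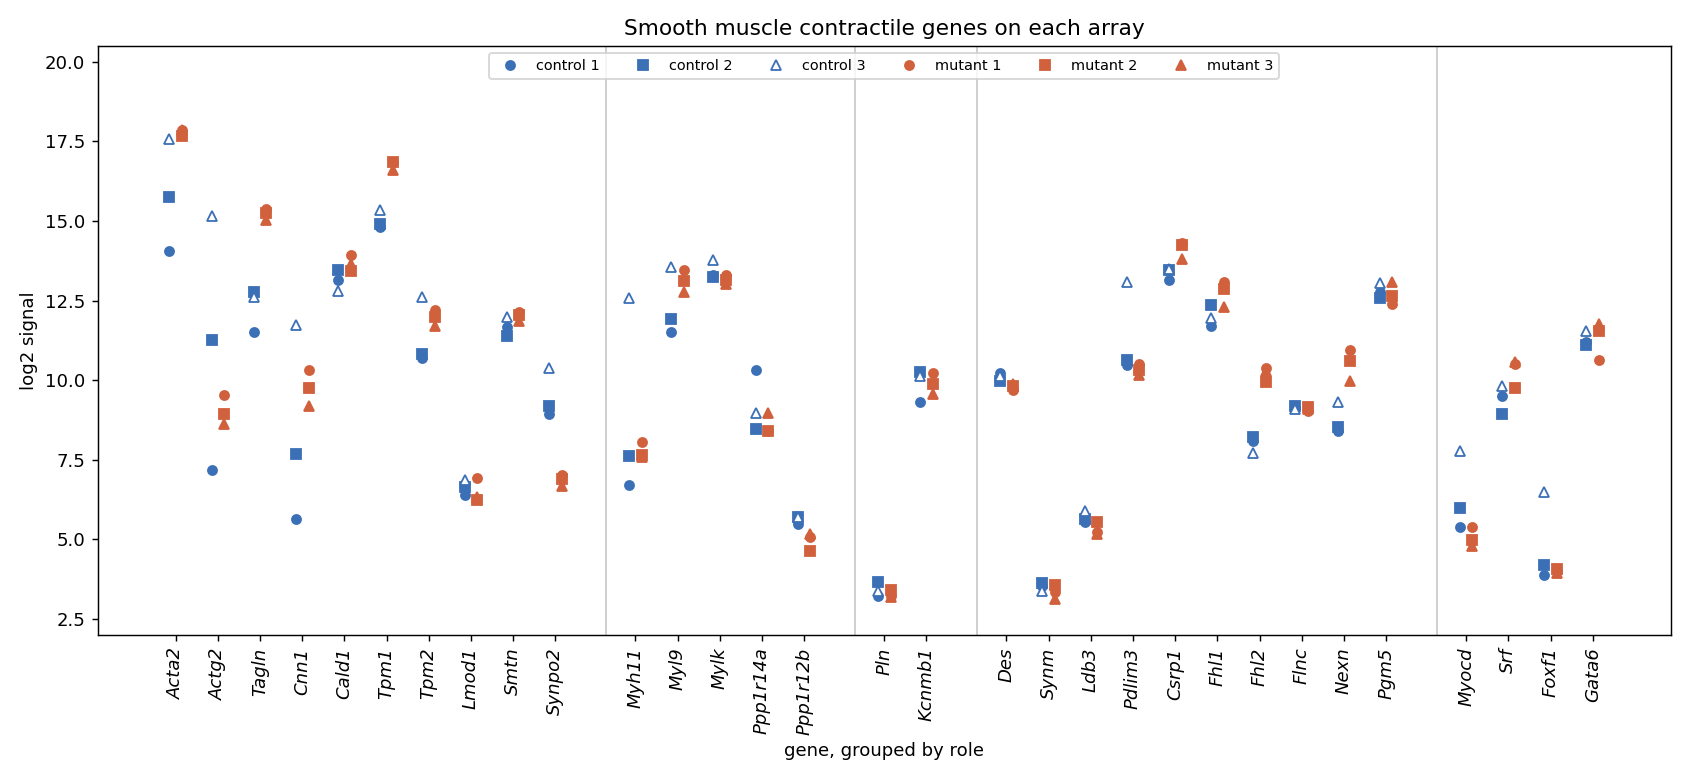
Log2 signal (vertical axis) of the 31 contractile genes (horizontal axis, in 5 groups by role) on each of the 6 arrays, with controls in blue, control 3 as open triangles, and mutants in orange. Control 3 lies above every other array for Actg2, Cnn1, Myh11 and Pdlim3, whereas all mutants lie above all controls for Tagln, Tpm1, Fhl2 and Nexn.

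Over all 6 arrays, 4 contractile genes rose in mutant ducts, which were Tagln, Tpm1, Fhl2 and Nexn, and 1 fell, which was Synpo2. The share of all tested rows that rose was 2.59%, and the share that fell was 0.666%. The median log2 difference of the 31 genes was -0.05, beside -0.01 for all rows, and 14 of 31 were above 0, beside 10773 of all 22206 rows. Without control 3, 8 rose, with Acta2, Cnn1, Tpm2 and Myl9 joining the same 4, and Synpo2 fell again. In that comparison 2.54% of all rows rose and 0.594% fell, and the median of the contractile genes was 0.11, beside -0.01 for all rows. At an unadjusted limma p under 0.05, 9 of the 31 were higher and 3 lower over all arrays (8.49% and 6.81% of all rows), and 12 and 3 without control 3 (8.25% and 6.48%). The groups did not overlap, with mutants above, for 6 of the 31 over all arrays (background 10.9%) and for 11 without control 3 (background 15.9%). They did not overlap with mutants below for 4 in either comparison, with backgrounds of 10.2% and 16.3%.

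Of 10 genes of the thin filament, 2 rose and 1 fell over all arrays, beside 2.59% and 0.666% of all rows. Of these 10, 5 rose and 1 fell without control 3, beside 2.54% and 0.594%. Their median log2 difference was 0.56 over all arrays and 0.84 without control 3. Tagln, the actin-bundling protein transgelin (SM22), stood at 11.52, 12.76 and 12.62 in control 1, control 2 and control 3, and at 15.37, 15.26 and 15.02 in mutant 1, mutant 2 and mutant 3. Every mutant was above every control, and control 3 was no higher than control 2. Tagln rose 7.55-fold, a log2 difference of 2.92 ± 0.30 (SE; n = 3 each; limma adjusted p = 0.00108), and by 3.08 ± 0.33 without control 3 (limma adjusted p = 0.00171).

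Tpm1, a tropomyosin that lies along the actin filament and gates access of myosin, was at 14.81, 14.90 and 15.33 in controls and at 16.85, 16.85 and 16.59 in mutants. The 3 controls lay within 0.52 of each other, and the mutants within 0.26. The rise was 3.36-fold, or 1.75 ± 0.19 on the log2 scale (limma adjusted p = 0.00131), and 1.91 ± 0.19 without control 3. Its relative Tpm2 had 10.70 and 10.84 in control 1 and control 2 but 12.62 in control 3, above the mutants at 12.21, 12.00 and 11.70. The log2 difference of Tpm2 was 0.59 ± 0.44 with control 3 (limma adjusted p = 0.603) and 1.20 ± 0.21 without it (limma adjusted p = 0.0189), where it rose. The log2 difference of Tpm2 stayed at 1.14, 1.27 and 1.08 when control 1, control 2 or mutant 1 was also left out, while the call was lost in these smaller fits (limma adjusted p = 0.163, 0.124 and 0.0660). Where 1 control array is left, here and for other genes, it is assumed to vary as the mutants do.

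Acta2, the smooth muscle alpha actin, differed widely among controls, at 14.04, 15.76 and 17.57, and hardly among mutants, at 17.85, 17.67 and 17.85. All mutants were above all controls, but control 3 was only 0.10 below the lowest mutant. The log2 difference was 2.00 ± 0.69 (limma adjusted p = 0.191), and without control 3 Acta2 rose by 2.89 ± 0.41, which is 7.40-fold (limma adjusted p = 0.00712). That call was lost with a trended and robust variance prior (limma adjusted p = 0.0513). Over all arrays the value was 1.13 without control 1, so control 1 and control 3 pulled the estimate to opposite sides. Actg2, the smooth muscle gamma actin of gut, bladder and uterus, had the widest spread of the 31, at 7.19, 11.26 and 15.15 in controls against 9.54, 8.95 and 8.62 in mutants. The mutants lay between control 1 and control 2, and the log2 difference was -2.16 ± 1.53 with a 95% interval from -5.61 to 1.28, or -0.19 ± 0.92 without control 3. Against control 2 alone it was -2.23 (limma adjusted p = 0.0485), and against control 1 alone it was 1.85 (limma adjusted p = 0.0904). The actin proteins are near-identical, and probe positions were not used here, so signal shared between the rows of Acta2, Actg2 and other actins was not tested.

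Cnn1, calponin, which binds actin and slows myosin, was at 5.64, 7.69 and 11.74 in controls and at 10.31, 9.76 and 9.18 in mutants. Control 3 was the highest of the 6 arrays, and the mutants were all above control 1 and control 2. The log2 difference was 1.39 ± 1.21 (limma adjusted p = 0.654), and 3.08 ± 0.54 without control 3 (limma adjusted p = 0.0178), a rise of 8.46-fold. Without control 1 the difference over all arrays was 0.03, and without both control 1 and control 3 it was 2.05 (limma adjusted p = 0.0985), against the single control 2.

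Synpo2, synaptopodin 2 or myopodin, an actin-bundling protein of the Z-disc and dense body, went the other way. It stood at 8.94, 9.19 and 10.39 in controls and at 7.03, 6.89 and 6.69 in mutants, and the groups were separated by 1.92. The fall was 6.22-fold, a log2 difference of -2.64 ± 0.33 (limma adjusted p = 0.00286), and -2.20 ± 0.20 without control 3 (limma adjusted p = 0.000752). Control 3 had the highest Synpo2 of the 6 arrays. The other thin filament genes were not called: Cald1, caldesmon, had a log2 difference of 0.54 ± 0.22, Smtn, smoothelin, 0.33 ± 0.19, and Lmod1, the actin nucleator leiomodin, -0.15 ± 0.23.

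Of the myosin genes, none of 5 was called over all arrays and 1 rose without control 3, beside 2.54% of all rows. At an unadjusted limma p under 0.05 Ppp1r12b, which was lower, was the only one of the 5 over all arrays. Of all rows, 6.81% were lower at that threshold. Myh11, the smooth muscle myosin heavy chain and the most restricted marker of mature smooth muscle, was at 6.70, 7.61 and 12.58 in controls and at 8.04, 7.64 and 7.57 in mutants. Control 3 was 4.97 above the next control, and the mutants reached no more than 8.04. The log2 difference was -1.21 ± 1.22 over all arrays and 0.60 ± 0.29 without control 3, with a 95% interval from -0.06 to 1.25 (limma adjusted p = 0.388).

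Myl9, the regulatory light chain of smooth muscle myosin, was at 11.53 and 11.91 in control 1 and control 2, at 13.56 in control 3, and at 13.48, 13.12 and 12.76 in mutants. It rose by 1.40 ± 0.25 without control 3 (limma adjusted p = 0.0198), where it was above both remaining controls in 3 of 3 mutants. With control 3 the log2 difference was 0.79 ± 0.46 (limma adjusted p = 0.473). With control 1, control 2 or mutant 1 also left out, the log2 difference of Myl9 was 1.21, 1.59 and 1.23, and the call was lost (limma adjusted p = 0.191, 0.0904 and 0.0581). Mylk, the light chain kinase, varied little, from 13.25 to 13.76 in controls and from 13.03 to 13.30 in mutants, and its 95% interval over all arrays was -0.72 to 0.14. Ppp1r14a, the phosphatase inhibitor CPI-17, was high in control 1 at 10.31, against 8.48 and 8.97 in the other controls and 8.41, 8.42 and 8.96 in mutants. Ppp1r12b, a targeting subunit of myosin phosphatase, was below background in all mutants and in 1 control, with a log2 difference of -0.67 ± 0.19 (limma adjusted p = 0.111).

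The pair of membrane and calcium genes showed no call. Kcnmb1, the beta subunit of the calcium-activated potassium channel, ranged from 9.31 to 10.25 in controls and from 9.55 to 10.23 in mutants, with a 95% interval of the log2 difference from -0.63 to 0.62. Pln, phospholamban, the brake on the calcium pump of the sarcoplasmic reticulum, was between 3.20 and 3.67 and below background on every array.

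Among 10 intermediate filament, dense body and LIM-domain genes, Fhl2 and Nexn rose and none fell, with control 3 or without it. Of all rows, 2.59% and 2.54% rose. Synpo2, also a dense body protein, is counted with the thin filament genes, where it fell. Fhl2, a LIM-only cofactor that shuttles between adhesions and the nucleus, was at 8.09, 8.22 and 7.71 in controls and at 10.38, 9.94 and 10.28 in mutants. Control 3 was the lowest array for Fhl2. The rise was 4.57-fold, or 2.19 ± 0.20 on the log2 scale (limma adjusted p = 0.000551), and 2.04 ± 0.21 without control 3. Nexn, nexilin, which binds actin at Z-discs and adhesions, was at 8.39, 8.52 and 9.31 in controls and at 10.94, 10.62 and 9.96 in mutants. It rose by 1.77 ± 0.31 (limma adjusted p = 0.0143) and by 2.05 ± 0.28 without control 3 (limma adjusted p = 0.00564). From all arrays, leaving out control 1, control 2, mutant 1 or mutant 2 kept the log2 difference of Nexn at 1.59, 1.65, 1.55 and 1.71, though the call was lost with 1 array fewer (limma adjusted p = 0.0663, 0.0686, 0.0586 and 0.0594). Without control 3 the difference was 1.99 and 2.12 when control 1 or control 2 was left out too (limma adjusted p = 0.0835 and 0.0644).

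The other LIM genes had smaller differences. Csrp1, a cysteine-rich LIM protein of smooth muscle, was at 13.15, 13.46 and 13.49 in controls and at 14.32, 14.24 and 13.80 in mutants, and the groups did not overlap. Its log2 difference of 0.75 ± 0.20 missed the threshold (limma adjusted p = 0.0840), and passed it without rows under the median signal (0.0384), with the trended and robust prior (0.0226) and with array weights (0.0431). Fhl1 had a log2 difference of 0.75 ± 0.25 (limma adjusted p = 0.181). Pdlim3, the actinin-associated LIM protein ALP, was at 10.48 and 10.62 in control 1 and control 2, at 13.07 in control 3 and at 10.50, 10.31 and 10.17 in mutants. Without control 3 the 95% interval of its log2 difference was -0.67 to 0.22. Des, desmin, the muscle intermediate filament, was between 9.98 and 10.22 in controls and between 9.70 and 9.89 in mutants, a log2 difference of -0.31 ± 0.16 (limma adjusted p = 0.405). Flnc, filamin C, was within 0.17 over all 6 arrays, from 9.02 to 9.19. Pgm5, the adhesion protein aciculin, had a log2 difference of -0.10 ± 0.22. Ldb3, a Z-disc protein of striated muscle, was below background in all mutants, and Synm, synemin, on every array.

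The 4 transcription factors were not called in either comparison. Over all arrays Srf and Myocd had an unadjusted limma p under 0.05, in opposite directions. Srf was at 9.50, 8.95 and 9.81 in controls and at 10.51, 9.75 and 10.57 in mutants, so mutant 2 lay under control 3. Its log2 difference was 0.86 ± 0.28 (limma adjusted p = 0.174), and 1.05 ± 0.29 without control 3 (limma adjusted p = 0.116). Myocd, myocardin, the cofactor that directs SRF to smooth and cardiac muscle genes, was at 5.39, 5.97 and 7.77 in controls and at 5.40, 4.995 and 4.80 in mutants, below background in every mutant and in control 1. The log2 difference was -1.31 ± 0.51 (limma adjusted p = 0.255), and -0.62 ± 0.26 without control 3 (limma adjusted p = 0.310). Foxf1, a forkhead factor of visceral mesenchyme, exceeded background in control 3, at 6.50, and on none of the other 5 arrays, where it was between 3.89 and 4.18. Gata6, a factor of differentiated smooth muscle, ranged from 11.09 to 11.55 in controls and from 10.64 to 11.77 in mutants, with a 95% interval from -0.61 to 0.68.

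**Figure D2:**
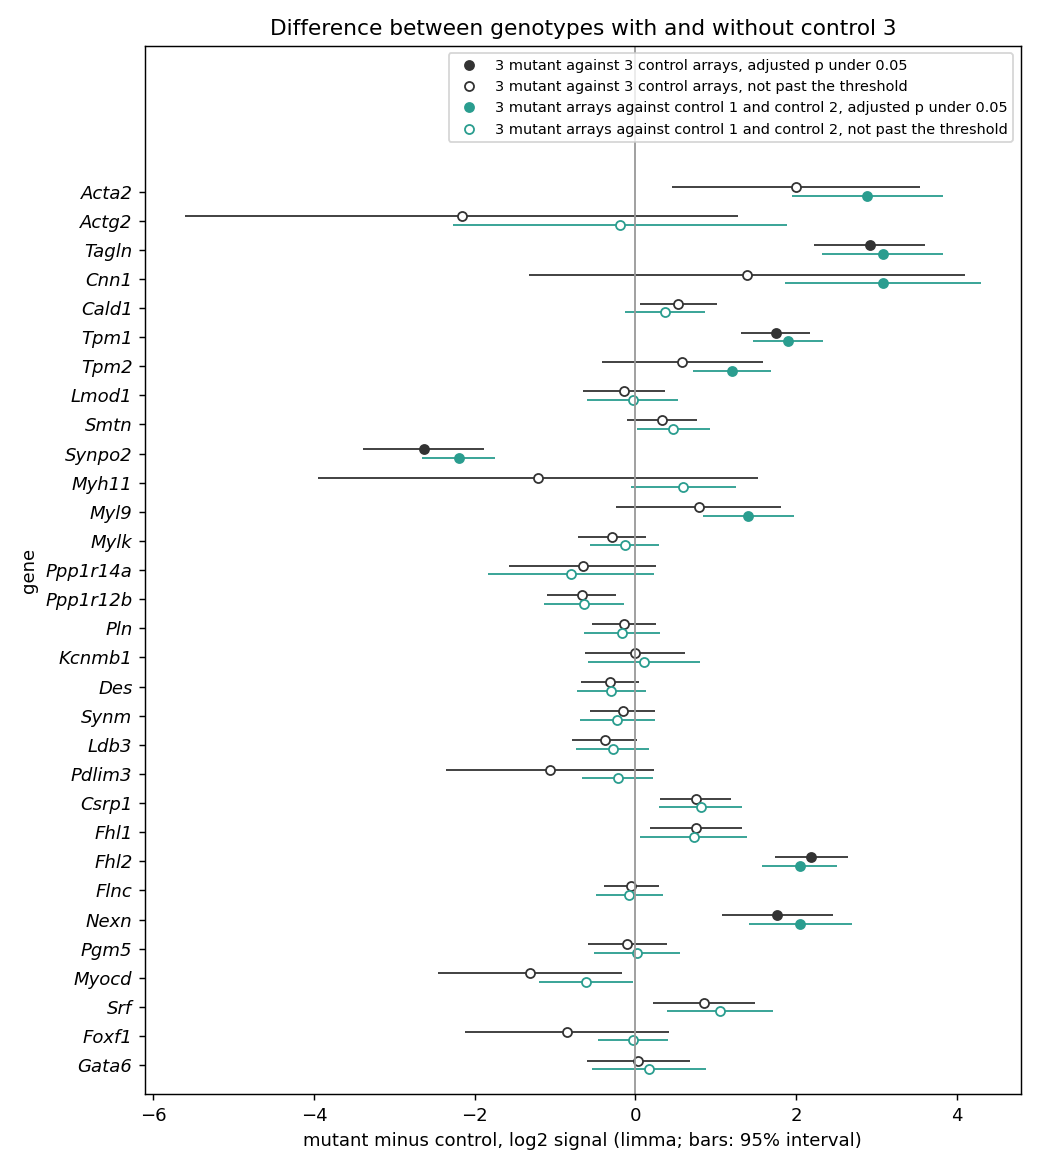
Log2 difference of mutant minus control (horizontal axis) with its 95% limma interval for each contractile gene (vertical axis), over all 6 arrays (black) and without control 3 (green); filled points passed an adjusted p of 0.05. Acta2, Cnn1, Tpm2 and Myl9 pass when control 3 is left out, and the interval of Actg2 over all arrays runs from -5.61 to 1.28.

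The genes separated into groups when control 3 and the mutants were each set against the mean of control 1 and control 2, a threshold of 1 being used for description only. Both differences subtract the same 2 arrays, so they are given side by side. Acta2, Cnn1, Tpm2 and Myl9 were higher both in control 3 (by 2.66, 5.07, 1.86 and 1.84) and in mutants (by 2.89, 3.08, 1.20 and 1.40), a class that held 0.239% of all rows. Actg2, Myh11, Pdlim3, Foxf1 and Myocd were higher in control 3 (by 5.92, 5.43, 2.52, 2.46 and 2.09) with mutants within 2-fold, as were 1.52% of all rows. Tagln, Fhl2, Nexn, Tpm1 and Srf were higher in mutants (by 3.08, 2.04, 2.05, 1.91 and 1.05) with control 3 within 2-fold, as were 2.52% of all rows. Synpo2 alone of the 31 was higher in control 3, with a difference of 1.32, and lower in mutants, with one of -2.20, and 2 of all 22206 rows had this pattern. The remaining 16 contractile genes were within 2-fold in both respects, like 94.5% of all rows. Counted without regard to control 3, a mutant mean at least 1 above that of control 1 and control 2 was found for 9 of the 31 and for 2.78% of all rows.

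**Figure D3:**
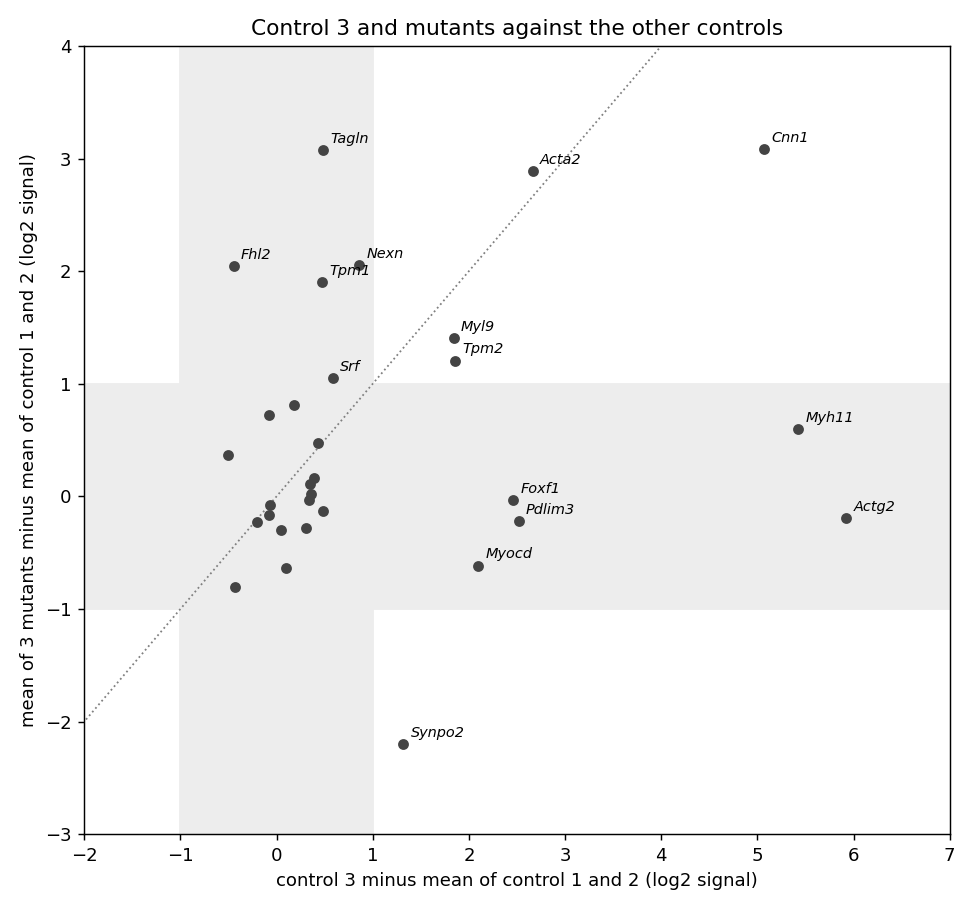
Difference of control 3 from the mean of control 1 and 2 (horizontal axis, log2) against that of the mean of the 3 mutants (vertical axis, log2) for the 31 contractile genes; grey bands mark less than 2-fold and the dotted line equal values. Myh11 and Actg2 lie far to the right near 0 on the vertical axis, Tagln and Fhl2 lie high near 0 on the horizontal axis, and Synpo2 lies alone at the lower right.

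The spread among controls can be set beside that among mutants. A range of 1 or more over the 3 controls was found for 12 of the 31, beside 6.42% of all rows, and over the 3 mutants for 2, Cnn1 and Gata6, beside 6.07%. Control 1 was the lowest and control 3 the highest control for 15 of the 31, beside 15.1% of all rows. The mean log2 signal of the 31 genes was 9.26, 9.65 and 10.57 in control 1, control 2 and control 3, and 10.11, 9.95 and 9.86 in mutant 1, mutant 2 and mutant 3, so the mutants lay between control 2 and control 3. The log2 of their summed signal, which the strongest genes set, ran from 16.68 to 18.51 in controls and from 18.76 to 18.91 in mutants.

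Other genes of smooth muscle and its regulation were read from a second list. Of 20 measured (of 24 in the list), 3 rose and none fell, with control 3 or without it, where 2.59% and 2.54% of all rows rose. The median log2 difference was 0.10 and 0.20. At an unadjusted limma p under 0.05, 2 were lower over all arrays, Mustn1 at -0.86 ± 0.21 (limma adjusted p = 0.0615) and Aoc3 at -0.55 ± 0.15 (0.106). Rock1 (0.59 ± 0.18), Hspb8 (0.59 ± 0.24) and Tgfb1i1 (0.67 ± 0.29) were higher at that threshold, as were the 3 that rose. Of all rows, 6.81% were lower and 8.49% higher at that threshold. Dmd, dystrophin, which ties actin to the membrane, rose by 1.90 ± 0.20 (limma adjusted p = 0.00121). Prkg1, the cGMP-dependent kinase that relaxes smooth muscle, rose by 0.91 ± 0.16 (0.0163), and Jph2, which holds calcium stores near the membrane, by 1.17 ± 0.25 (0.0365) from a signal below background in 1 control. Casq2 and Sgca were below background on every array. Only 1 of the 20 was at least 1 higher in control 3 than in both other controls.

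Cytoskeletal SRF targets that all cells express rose in 6 of 17 cases, beside 2.59% of all rows, and none fell. Their median was 0.49, and all 17 had a log2 difference above 0, as had 10773 of all 22206 rows. Without control 3, 4 rose (2.54% of all rows), the differences of all 17 were again above 0 (10720 of all rows), and the median was 0.53. Myh9, the non-muscle myosin heavy chain, rose by 1.49 ± 0.18 (limma adjusted p = 0.00250) and by 1.46 ± 0.22 without control 3. Vcl, vinculin, rose by 1.47 ± 0.19, Cnn2, the calponin of non-muscle cells, by 1.16 ± 0.19 and Actn4, an actinin, by 0.91 ± 0.15. None of the 17 was highest in control 3, where 11 of the 31 contractile genes were (15.9% of all rows). Their mean log2 signal was 14.49 to 14.61 in controls and 15.02 to 15.25 in mutants.

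Markers of other contractile and vascular cells were read on the same arrays. Of 8 pericyte and vascular mural markers, 1 rose, Pdgfrb, by 0.91 ± 0.18 (limma adjusted p = 0.0263), a call lost without control 3, where it was 0.87 ± 0.21 (0.0710), and their mean log2 signal was 9.39 to 9.57 in controls and 9.93 to 10.07 in mutants. The log2 of their summed signal ran from 14.42 to 14.47 in controls and from 15.09 to 15.40 in mutants. Most of that sum was Pdgfrb, which ran from 13.82 to 14.07 in controls and from 14.59 to 15.04 in mutants. Higd1b was below background throughout. Of 9 endothelial markers Kdr rose, by 1.10 ± 0.16, but only 3 of the 9 had a log2 difference above 0, and the median was -0.21. The mean of these markers was 11.01 to 11.11 in controls and 10.91 to 11.19 in mutants. The log2 of their summed signal was 15.54 to 15.73 in controls and 15.98 to 16.21 in mutants. Eng and Kdr were among the strongest genes in that sum. Eng ran from 14.13 to 14.48 in controls and from 14.71 to 14.96 in mutants, and Kdr from 13.17 to 13.40 and from 14.32 to 14.50. The skeletal and cardiac muscle markers had no call in either comparison, and over all arrays Chrna1, below background throughout, was the only one at an unadjusted limma p under 0.05, at -0.48 ± 0.19. Of the interstitial cell and nerve markers Ano1, a chloride channel also present in smooth muscle and epithelia, fell by 1.02 ± 0.16 (limma adjusted p = 0.00991). Of the urothelial markers Krt7, a keratin also of Müllerian epithelium, rose by 1.01 ± 0.19 without control 3 (limma adjusted p = 0.0233). Of the Müllerian markers Amhr2 and Hoxd11 fell and Lhx1 was called higher at signals below background, by 1.20 ± 0.25 (limma adjusted p = 0.0358). Without control 3 the difference of Lhx1 was 1.23 ± 0.29 and not called (0.0690). The mean of the 16 Müllerian markers was 11.12 to 11.42 in controls and 10.40 to 11.01 in mutants. The log2 of their summed signal was 17.90 to 18.20 in controls and 17.51 to 17.87 in mutants. Both include Amhr2, the locus that holds Cre in mutants only, with a log2 difference of -3.73, and neither was computed without it. The median log2 difference of the 16 was -0.42, and 3 were above 0, beside 10773 of all 22206 rows. Immediate early and stress genes, which handling can induce, rose in 5 of 11 cases over all arrays, beside 2.59% of all rows. These were Ier3, Fos, Hspa1a, Hspa1b and Egr1. Without control 3, 6 rose, beside 2.54%. Over all arrays 8 of 11 had a log2 difference above 0, as had 10773 of all 22206 rows. It was below 0 for Jun (-0.03), Ier2 (-0.11) and Dnajb1 (-0.10). The mean of the 11 genes was 7.84 to 8.29 in controls and 9.08 to 9.27 in mutants. The log2 of their summed signal was 12.40 to 12.67 in controls and 13.61 to 13.68 in mutants, and Junb was below background on every array. The part of mural or endothelial cells, handling or the lower Müllerian markers in the rises of Tagln, Tpm1, Fhl2 and Nexn was not tested.

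**Figure D4:**
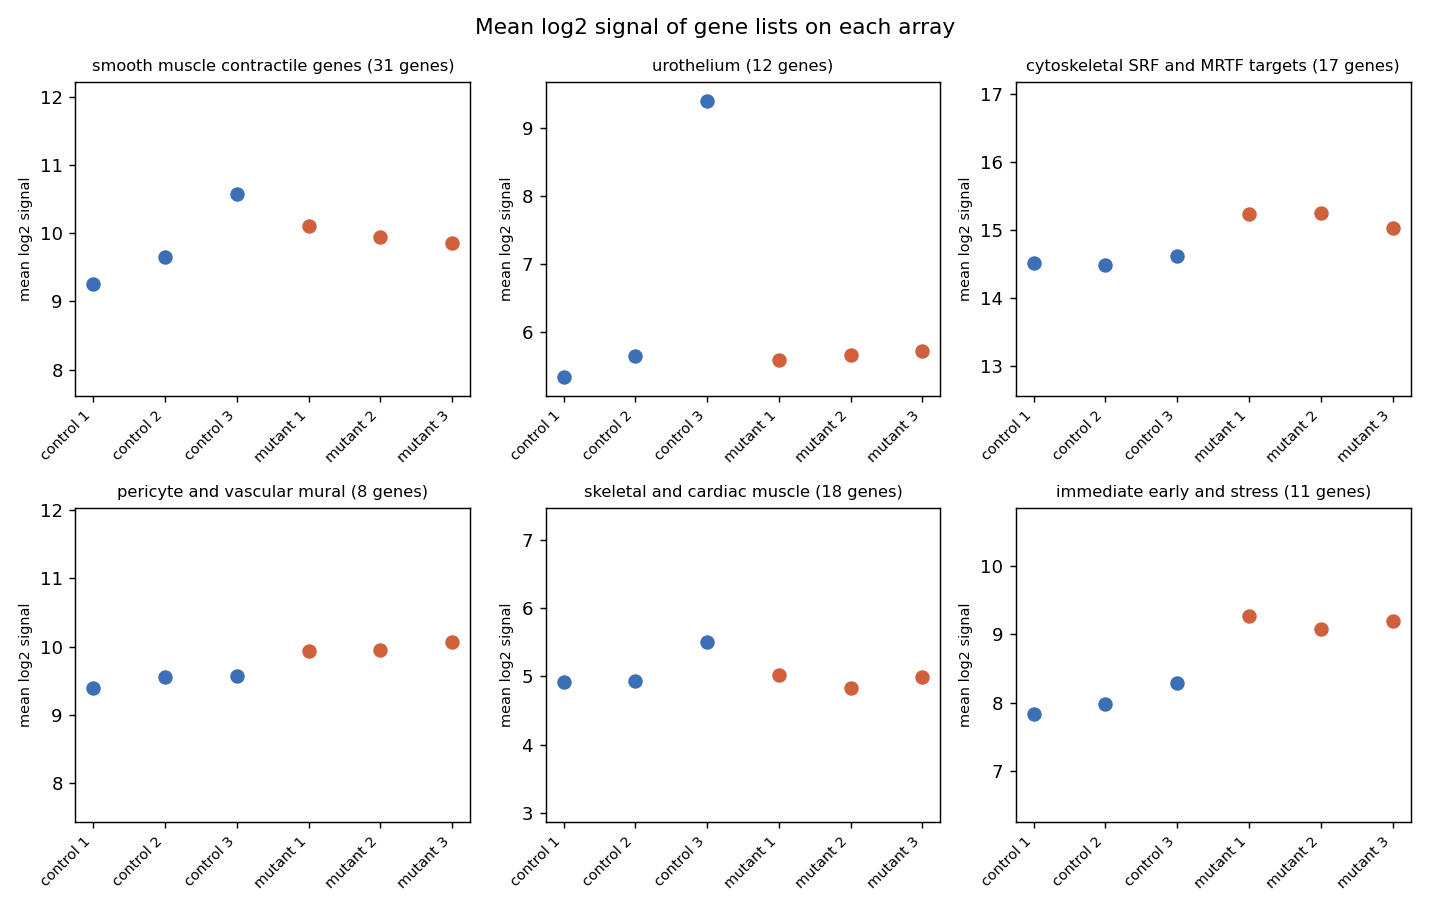
Mean log2 signal (vertical axes, each spanning the same number of units) of 6 gene lists on each array (horizontal axes), controls in blue and mutants in orange. The urothelial mean is 9.39 in control 3 and at most 5.72 elsewhere, and the cytoskeletal SRF targets lie between 14.49 and 14.61 in controls and between 15.02 and 15.25 in mutants.

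Promoter sequences were read because contractile genes share sites for SRF and, in some, for TEAD factors. RefSeq promoters (build GRCm38.p6; 250 bases before to 50 after each start) were found for 25 of the 32 genes by symbol, in 32 windows. Actg2, Foxf1, Gata6, Myh11, Myocd, Nexn and Tagln had no entry. The CArG box, the SRF site of 10 bases with 6 A or T in its core, was present in the windows of 5 of the 25 genes (20%), which were Fhl1, Fhl2, Ldb3, Myl9 and Srf, and in those of 1.81% of all 27025 genes. By window it was in 7 of 32, beside 1.63% of all 32851 windows. The TEAD motif, read as GGAATG or CATTCC to cover both strands, was in 9 of 25 genes (36%) and in 16.6% of all genes (14.7% of all windows). No CArG box overlapped a TEAD match. A match describes letters in this window only. Only exact matches were counted, for the CArG box CC, then 6 A or T, then GG. SRF sites that differ from these letters by a base were not seen, so a window without a match may still hold one. The stretches that follow are from genes called in at least 1 of the comparisons, and from Srf itself, with the CArG box in capitals for Srf, Myl9 and Fhl2 and the TEAD motif in capitals for Tpm1 and Acta2. All are 5′ to 3′ on the gene's strand and end before or at the start of transcription.
Srf, chr17:46556175-46556264, minus strand: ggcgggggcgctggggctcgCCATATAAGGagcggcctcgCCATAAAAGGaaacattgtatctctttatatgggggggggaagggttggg
Myl9, chr2:156775263-156775352, plus strand: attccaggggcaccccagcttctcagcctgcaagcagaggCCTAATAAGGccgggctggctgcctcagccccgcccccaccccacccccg
Fhl2, chr1:43163962-43164032, minus strand: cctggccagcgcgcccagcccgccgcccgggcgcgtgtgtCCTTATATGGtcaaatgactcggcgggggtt
Fhl2, second start, chr1:43196808-43196897, minus strand: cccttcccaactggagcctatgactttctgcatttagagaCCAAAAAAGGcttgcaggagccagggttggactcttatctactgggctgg
Tpm1, chr9:67049224-67049309, minus strand: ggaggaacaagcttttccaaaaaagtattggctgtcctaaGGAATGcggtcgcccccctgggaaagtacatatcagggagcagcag
Acta2, chr19:34255474-34255559, minus strand: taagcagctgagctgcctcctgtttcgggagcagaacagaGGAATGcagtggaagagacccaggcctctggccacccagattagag
The Srf window held a pair of CArG boxes, beginning 82 and 62 bases before the start. The box of Myl9 began 161 bases before its start, and those of Fhl2 31 and 96 bases before its 2 starts. The TEAD motif began 56 bases before the start of Tpm1 and 146 bases before that of Acta2. The window of Synpo2, the gene that fell, held no exact match to either motif, and the same held for Cnn1 and Tpm2.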

How the data were processed

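Gene expression was measured on 6 Affymetrix arrays, 3 control and 3 mutant. The authors deposited log2 signals, 1 column for each array, made with Transcriptome Analysis Console 4.0 per the submitters' processing notes; the summarisation and normalization methods are not given in the sources used here. Values were used as deposited. Of 28846 rows the 22206 transcript clusters were tested and control rows left out. Probes were named with the platform annotation, brought up to date by gene identifier, and 19572 tested rows had a symbol. Groups came from the labels. Genotype was fitted to each row in R 4.3.3 with limma 3.58.1 (lmFit, then eBayes), two-sided, with Benjamini-Hochberg adjustment over all rows. The labels call the samples biological replicates.

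The members and gene lists were chosen with earlier results of these data known, as was leaving out control 3. Named are all members on the array, from every list at most 4 genes, those of smallest p over all 6 arrays, defining markers below background, the 10 symbols with the largest excess in control 3, and Lats1, Lats2 and Amhr2. Krt7, Aoc3, Rock1, Hspb8, Tgfb1i1, Elavl4, Ret, Etv1, Egr1, Jun, Ier2 and Dnajb1 fall outside that rule and were chosen after their values were seen.

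On simulated data with 22206 rows the fit was tested. Of rows changed by 1 on the log2 scale it recovered 48% over all 6 arrays and 11% without control 3, and of those changed by 2, 92% and 80%. In the simulation the spreads were shuffled over rows, the widest were cut down, and no array stood apart as control 3 did. These shares therefore do not apply to genes with wide controls, such as Actg2, Myh11, Cnn1 and Acta2. Precision is limited by how few arrays there are. Alternatives were quantile normalization, a common median, a filter on dim rows, a trended robust prior, weights per array, a replicate block and each array left out. Figures were drawn with matplotlib 3.10.9.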

Additional observations from a re-analysis of the deposited data

How the results depend on the processing

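The counts of contractile genes that rose (4 over all arrays, 8 without control 3) and fell (1 and 1) stayed within 1.5 times under quantile normalization, a common median, the filter on dim rows, the trended and robust prior, array weights and the replicate block. With 1 array left out, rises ran from 3 to 8 and falls were 1 from all 6 arrays; from the 5 arrays, rises ran from 4 to 9 and falls from 1 to 2. Over all tested rows, 575 rose and 148 fell with 6 arrays and 565 and 132 without control 3. The filter on dim rows gave 257 and 213 falls, the trended and robust prior 243 and 214, and the replicate block without control 3 gave 289. Leaving out 1 array gave 305 to 565 rises and 55 to 132 falls from 6 arrays, and 190 to 456 rises and 23 to 101 falls from 5; fewer arrays were then fitted. No called contractile gene changed direction.

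Nothing in the labels pairs the samples by replicate number. Deviations of same-numbered arrays correlated at 0.0078, 0.0419 and -0.003, and those of differently numbered arrays from -0.0435 to 0.0318. As the deviations were taken from means of 3 arrays, these values cannot exclude a pairing. With the replicate block, 5 contractile genes rose over all arrays, Srf being added (adjusted p = 0.0485), and 11 without control 3, with Csrp1, Fhl1 and Srf added (0.0279, 0.0496 and 0.0389), at 1 residual degree of freedom. Tagln, Tpm1, Synpo2 and Fhl2 were called under every alternative run in both comparisons. The filter on dim rows left 24 of the 31 genes. With 3 arrays or fewer a group, changes of 2-fold or less were often not detectable.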
